A study of Mus musculus with 6 samples.

Results

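The circadian clock genes Arntl, Clock, Per1, Per2, Per3, Cry1, Cry2, Dbp, Tef and Hlf were followed in livers of TFEB transgenic and wild-type mice. These 10 genes were chosen by name, and every one of the 18 array probe sets annotated to exactly 1 of them was kept, out of 22626 probe sets tested. The study measured liver RNA on Affymetrix arrays, 1 array per animal, from 3 transgenic mice and 3 wild-type mice at postnatal day 9. The transgenic mice carried a conditional Tcfeb (now Tfeb) overexpression allele and Alb-Cre, so Cre recombinase was driven by the albumin promoter, which is active in hepatocytes. TFEB is a transcription factor that activates lysosomal and autophagy genes. The controls are labelled wild type, with no statement on Cre or the conditional allele in them, and no label used here gives the time of day of sampling. The arrays are called biological replicates.

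The clock is a transcriptional feedback loop that runs in nearly every cell. BMAL1 (gene Arntl) pairs with CLOCK, binds E-boxes and activates the Per and Cry genes, whose proteins return to block that pair. REV-ERB and ROR nuclear receptors set the level of Arntl through ROR elements, and the PAR bZIP factors DBP, TEF and HLF, themselves clock outputs, bind D-boxes and control detoxification genes in liver. In adult mouse liver, Arntl transcripts are most abundant at about the opposite time of day to those of Dbp.

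RefSeq promoter windows (build GRCm38.p6, 250 bases before to 50 after each transcript start) were matched for 9 of the 10 genes, with 14 starts. The bases before the start are printed for Per3, Per1, Cry1 and Tef because they hold letter strings of the E-box and D-box, the kinds of element bound by products of other clock genes, and a 30-base stretch with the core of a ROR element is printed for Arntl. Capitals mark CACGTG (E-box, in Per1, Cry1 and Tef), AACGTG (the reverse strand of CACGTT, in Cry1), TTATGTAA (D-box, in Per3) and TAGGTCA (core of a ROR element, in Arntl).
Per3: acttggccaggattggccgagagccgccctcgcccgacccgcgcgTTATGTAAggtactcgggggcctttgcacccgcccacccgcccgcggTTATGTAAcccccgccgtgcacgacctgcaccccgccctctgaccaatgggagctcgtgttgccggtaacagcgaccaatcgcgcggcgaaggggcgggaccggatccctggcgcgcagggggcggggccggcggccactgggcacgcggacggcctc
Per1: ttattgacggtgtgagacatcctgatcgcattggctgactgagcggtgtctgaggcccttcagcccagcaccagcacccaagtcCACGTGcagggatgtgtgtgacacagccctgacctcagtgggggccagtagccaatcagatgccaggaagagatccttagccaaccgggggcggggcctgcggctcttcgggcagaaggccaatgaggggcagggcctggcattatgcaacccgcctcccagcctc
Cry1: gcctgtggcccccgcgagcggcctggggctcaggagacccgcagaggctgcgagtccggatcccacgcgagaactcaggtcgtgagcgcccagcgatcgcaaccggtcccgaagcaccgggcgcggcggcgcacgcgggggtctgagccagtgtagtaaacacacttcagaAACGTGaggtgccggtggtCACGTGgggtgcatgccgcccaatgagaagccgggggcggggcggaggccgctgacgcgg
Tef, upstream start: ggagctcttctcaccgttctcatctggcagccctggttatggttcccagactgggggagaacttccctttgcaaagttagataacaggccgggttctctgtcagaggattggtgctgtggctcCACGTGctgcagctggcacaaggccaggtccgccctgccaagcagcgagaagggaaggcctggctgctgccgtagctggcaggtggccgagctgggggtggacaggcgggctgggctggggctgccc
Tef, downstream start: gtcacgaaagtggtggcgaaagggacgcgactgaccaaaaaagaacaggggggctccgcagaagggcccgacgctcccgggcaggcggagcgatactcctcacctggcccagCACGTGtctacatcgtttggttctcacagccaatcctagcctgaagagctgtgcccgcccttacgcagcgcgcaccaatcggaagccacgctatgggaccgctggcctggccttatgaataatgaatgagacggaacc
Arntl: gaaggcagaaagTAGGTCAgggacggaggt
The Per3 stretch lies at chr4:151044666-151044915, minus strand, that of Per1 at chr11:69098699-69098948, plus strand and that of Cry1 at chr10:85185055-85185304, minus strand. The Tef stretches lie at chr15:81802423-81802672, plus strand, and chr15:81811164-81811413, plus strand, and the Arntl site at chr7:113207529-113207558, plus strand. Each letter string was searched on both strands over the whole window. CACGTG occurred in 3 of 9 matched clock genes (33.3%), against 8.09% of all 27025 genes with a window, and TTATGTAA in 1 (11.1%), against 1.11%. That gene was Per3, which held the D-box at positions -205 and -158 from the start. TAGGTCA was found in Arntl, with its first base at position 31 after the start (2.97% of all genes held it), and CACGTT in Cry1 and Cry2 (5.44% of all genes). Hlf held TGACGTCA, the cAMP response element (2.03% of all genes). The consensus CLEAR element, a palindrome that TFEB is known to bind and which contains CACGTG, was in 0 of the 9, against 0.37% of all genes, and TTACGTAA was in 0 as well, against 0.126%. A match here describes letters in the window and is not a measured binding site.

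Values below are log2 expression on the deposited scale, each difference is the transgenic mean minus the wild-type mean, given with its standard error (SE) from a limma fit over all probe sets, and p-values are adjusted by Benjamini-Hochberg over all of them, with a threshold of 0.05. Median levels were 6.74 to 6.79 on the 6 arrays. The Tfeb probe set read 6.52, 6.61 and 6.36 in transgenic livers, against 6.91, 6.63 and 6.58 in wild-type livers, and did not pass (adjusted p = 0.178). The labels do not say which part of the gene the transgene carries. Alb, the albumin gene that marks hepatocytes, read 14.87 ± 0.01 in transgenic and 14.87 ± 0.03 in wild-type livers (SD, n = 3 each). Its probe set was the brightest of all by mean level. The normalization makes array distributions nearly equal, which holds the brightest values together, so this level cannot measure hepatocyte content. Transgenic replicate 1 differed from the other 5 arrays in sex-linked transcripts, with Xist at 5.58 there and 13.03 to 13.19 elsewhere. The 14 array control probe sets for bacterial RNAs (bioB, bioC and bioD) all read lower on every transgenic array than on any wild-type array (median difference -0.37). Whether these controls follow the amount of liver RNA was not tested. Scaling the arrays to them moved the median of all differences from -0.04 to 0.33 and the share of calls that were higher from 51% to 93.2%. This scaling adds the same 0.37 to every difference, so it leaves their order and their position relative to the median unchanged by construction, and any difference between -0.37 and 0 turns its sign. On that scale 4.18% of all probe sets were called lower and 57.3% higher, and of all genes, each by its brightest probe set, 5.29% lower and 56.5% higher.

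On the deposited scale most clock probe sets were lower in transgenic livers, those of Clock went both ways and those of Dbp did not pass. Of the 18 probe sets 13 passed as lower, 1 passed as higher and 4 did not pass, where of all probe sets 17.3% passed as lower, 18.1% as higher and 35.4% in either direction. Among all probe sets within the range of mean levels of the clock probe sets, 17.9% passed as lower. Differences were below 0 at 17 of 18, where this held for 55.2% of all probe sets, and their median was -0.43, against -0.04 for all probe sets. Taking each gene by its brightest probe set, 8 genes were called lower, where 19.5% of all genes were, Clock was called higher, where 19.1% of all genes were, and Dbp did not pass. The 3 transgenic values lay below the 3 wild-type values at 15 of the 18 probe sets, against 25.9% of all, and above them at 1, against 24.6% of all. Scaled to the bacterial RNAs, 3 probe sets were called lower (for Arntl, Per3 and Cry1), 1 was called higher and 14 did not pass. On that scale 4.18% of all probe sets passed as lower and 57.3% as higher. In bulk liver RNA, fewer cells of a type and less RNA per cell cannot be told apart. Leaving out transgenic replicate 1 left 11 called lower, and the range was 9 to 12 over the 6 arrays left out in turn.

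**Figure D1:**
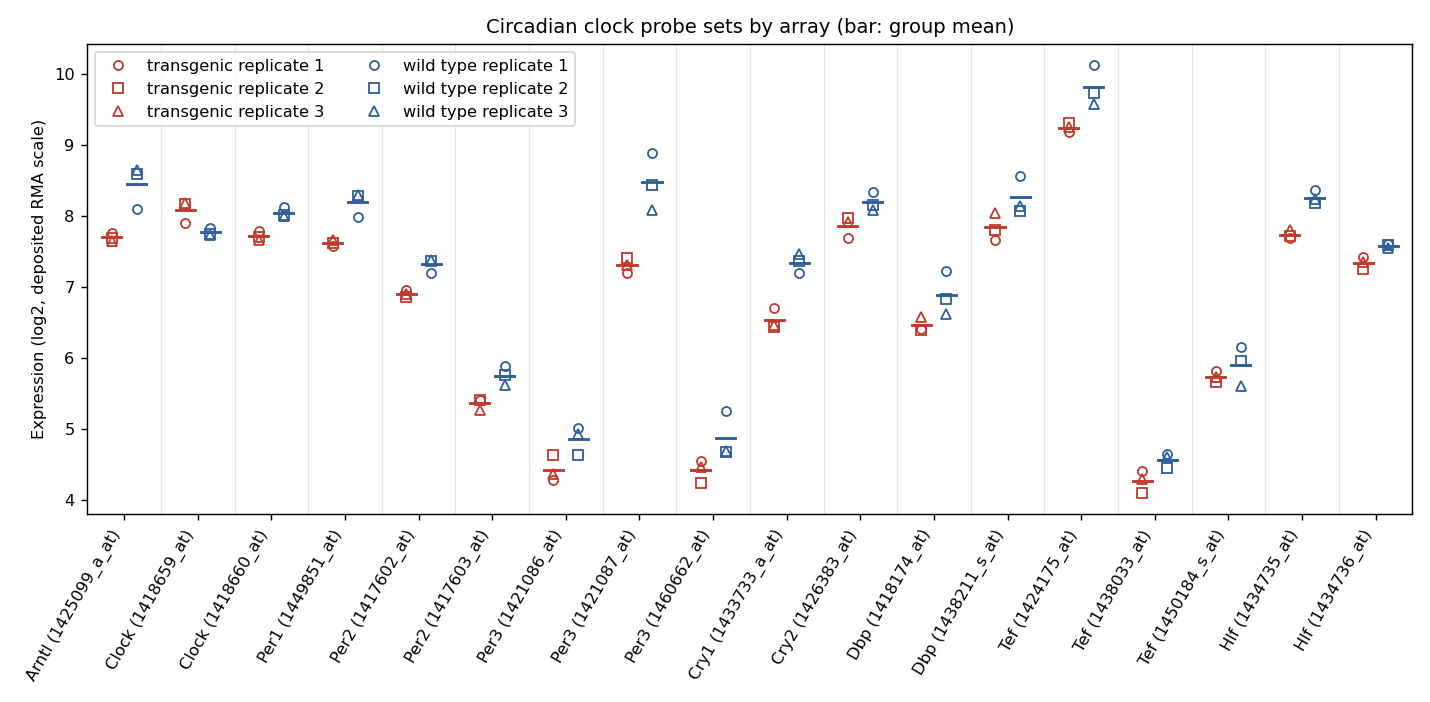
Log2 expression (vertical axis, deposited RMA scale) of the 18 clock probe sets on each array, transgenic in red left of wild type in blue, with symbols for the replicates and bars for the group means. On this scale the transgenic values lie below all wild-type values at 15 probe sets and above them at 1, a Clock probe set.

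Arntl, the activating subunit of the clock, read 7.77, 7.70 and 7.65 in transgenic livers, against 8.10, 8.59 and 8.65 in wild-type livers. The groups did not overlap, and the transgenic arrays lay closer together than the wild-type arrays. The difference was -0.74 (SE 0.14, adjusted p = 0.00531), a level 0.597 times that of wild type, and -0.37 (adjusted p = 0.0395) with arrays scaled to the bacterial RNAs.

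Clock, the partner of BMAL1, gave opposite answers on its 2 probe sets. Probe set 1418660_at read 7.7889, 7.7118 and 7.6578 in transgenic livers and 8.1327, 8.0126 and 7.9997 in wild-type livers, a difference of -0.33 (SE 0.07, adjusted p = 0.0112). Probe set 1418659_at read 7.90, 8.17 and 8.19 in transgenic livers and 7.84, 7.75 and 7.73 in wild-type livers, a difference of 0.31 (SE 0.09, adjusted p = 0.0343). Neither pair of groups overlapped. The rise lost its call without transgenic replicate 2 or 3 (adjusted p = 0.11 each) and without wild-type replicate 2 (0.0913) or 3 (0.0898), whereas the fall kept its call with each array left out. Averaged over both probe sets, the gene differed by -0.01 (adjusted p = 0.932), so no single direction can be given for Clock. On the scale of the bacterial RNAs the difference of the probe set that fell was 0.04 and that of the one that rose was 0.68. Which transcripts each probe set detects was not analysed here.

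The Per genes, which encode the repressors induced through E-boxes, were lower on the deposited scale at 5 of 6 probe sets. Per3 showed the largest difference of any clock probe set, with 7.20, 7.41 and 7.31 on 1421087_at in transgenic livers and 8.90, 8.44 and 8.09 in wild-type livers. That is a difference of -1.17 (SE 0.18, adjusted p = 0.00205) and a level 0.445 times that of wild type. With arrays scaled to the bacterial RNAs it was -0.80 (adjusted p = 0.00224). Wild-type Per3 was spread widely, yet its lowest array stood above every transgenic array.

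The other Per3 probe sets were dim, at percentiles 22.5 and 22.6 of mean level, against 65.2 for 1421087_at. They separated the groups less clearly. On 1421086_at the levels were 4.28, 4.63 and 4.36 in transgenic livers and 5.02, 4.63 and 4.92 in wild-type livers, groups that overlapped (difference -0.43, adjusted p = 0.0322). That call was lost without transgenic replicate 1 (adjusted p = 0.0968) or 3 (0.0967) and without wild-type replicate 1 (0.0805) or 3 (0.086). On 1460662_at the difference of -0.45 did not pass (adjusted p = 0.0642). On the bacterial scale neither passed (-0.06 and -0.08, adjusted p = 0.689 and 0.68).

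Per1, which also responds directly to glucocorticoid and cAMP signals, read 7.58, 7.63 and 7.67 in transgenic livers and 7.99, 8.29 and 8.30 in wild-type livers. The groups were clearly apart (difference -0.57, SE 0.10, adjusted p = 0.00323). Per2 read 6.97, 6.85 and 6.90 on 1417602_at in transgenic livers, against 7.21, 7.36 and 7.39 in wild-type livers (difference -0.41, SE 0.08, adjusted p = 0.00515). Its second probe set, 1417603_at, differed by -0.39 (adjusted p = 0.0119), close to the first. All of these calls held with each array left out. On the bacterial scale none passed, at -0.20 for Per1 (adjusted p = 0.131), and -0.04 (0.751) and -0.02 (0.895) for Per2.

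Cry1 encodes the strongest transcriptional repressor of the loop and had the smallest adjusted p among the clock probe sets. It read 6.70, 6.44 and 6.47 in transgenic livers, against 7.20, 7.36 and 7.47 in wild-type livers. With groups far apart for their spread, the difference was -0.81 (SE 0.10, adjusted p = 0.000736), or -0.44 (adjusted p = 0.0109) with arrays scaled to the bacterial RNAs. Cry2, its relative, read 7.69, 7.97 and 7.92 in transgenic livers, against 8.33, 8.16 and 8.09 in wild-type livers. The fall in Cry2 (difference -0.33, SE 0.10, adjusted p = 0.0356) was lost without transgenic replicate 1 (adjusted p = 0.1) or 3 (0.0661) and without wild-type replicate 1 (0.086) or 2 (0.0739). On the bacterial scale its difference was 0.04 (adjusted p = 0.78).

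Among the PAR bZIP factors, Hlf and Tef fell on the deposited scale. Hlf read 7.70, 7.72 and 7.80 on 1434735_at in transgenic livers, against 8.37, 8.18 and 8.24 in wild-type livers (difference -0.52, SE 0.08, adjusted p = 0.00158). The other Hlf probe set, 1434736_at, differed by -0.24 (adjusted p = 0.035), a call lost when any array other than transgenic replicate 1 was left out (highest adjusted p = 0.118 without transgenic replicate 2). On the scale of the bacterial RNAs these were -0.15 and 0.13, neither called.

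Tef read 9.18, 9.31 and 9.26 on 1424175_at in transgenic livers, against 10.12, 9.74 and 9.58 in wild-type livers (difference -0.57, SE 0.13, adjusted p = 0.0128). Probe set 1438033_at, dim at means of 4.27 transgenic and 4.57 wild type, differed by -0.30 (adjusted p = 0.0497). That call was lost when any array other than transgenic replicate 1 was left out (highest adjusted p = 0.148 without transgenic replicate 2). Probe set 1450184_s_at differed by -0.17 and did not pass (adjusted p = 0.36), with groups that overlapped. Scaled to the bacterial RNAs the first was -0.20 (adjusted p = 0.237) and the other Tef probe sets turned to 0.07 and 0.20.

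Dbp, a PAR bZIP gene that BMAL1 and CLOCK activate directly, did not pass on either probe set. On 1418174_at it read 6.41, 6.40 and 6.58 in transgenic livers and 7.23, 6.83 and 6.63 in wild-type livers, a difference of -0.43 (SE 0.15, adjusted p = 0.0513). The second probe set gave -0.42 (SE 0.15, adjusted p = 0.06). No transgenic value reached the lowest wild-type value on either probe set, but the wild-type values were spread over 0.60 on the first and 0.50 on the second. With all arrays kept, Dbp passed over the mean of its probe sets (difference -0.43, adjusted p = 0.0485). Both probe sets passed with quantile normalization again (adjusted p = 0.0443 and 0.0346), median centring, and trend and robust eBayes. They also passed without the dimmest probe sets. Neither passed with the replicate block (0.0759 and 0.0978). With cyclic loess only the second passed, and with array weights only the first. The suffix filter and 1 probe set per gene gave no Dbp call. Among fits without a single array, the first passed only without wild-type replicate 3 (-0.57, 0.0193). The second passed only without transgenic replicate 3 (-0.53, 0.0486). With single arrays left out the adjusted p reached 0.132 on the first and 0.165 on the second. On the bacterial scale the differences were -0.06 and -0.05 (adjusted p = 0.725 and 0.76).

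**Figure D2:**
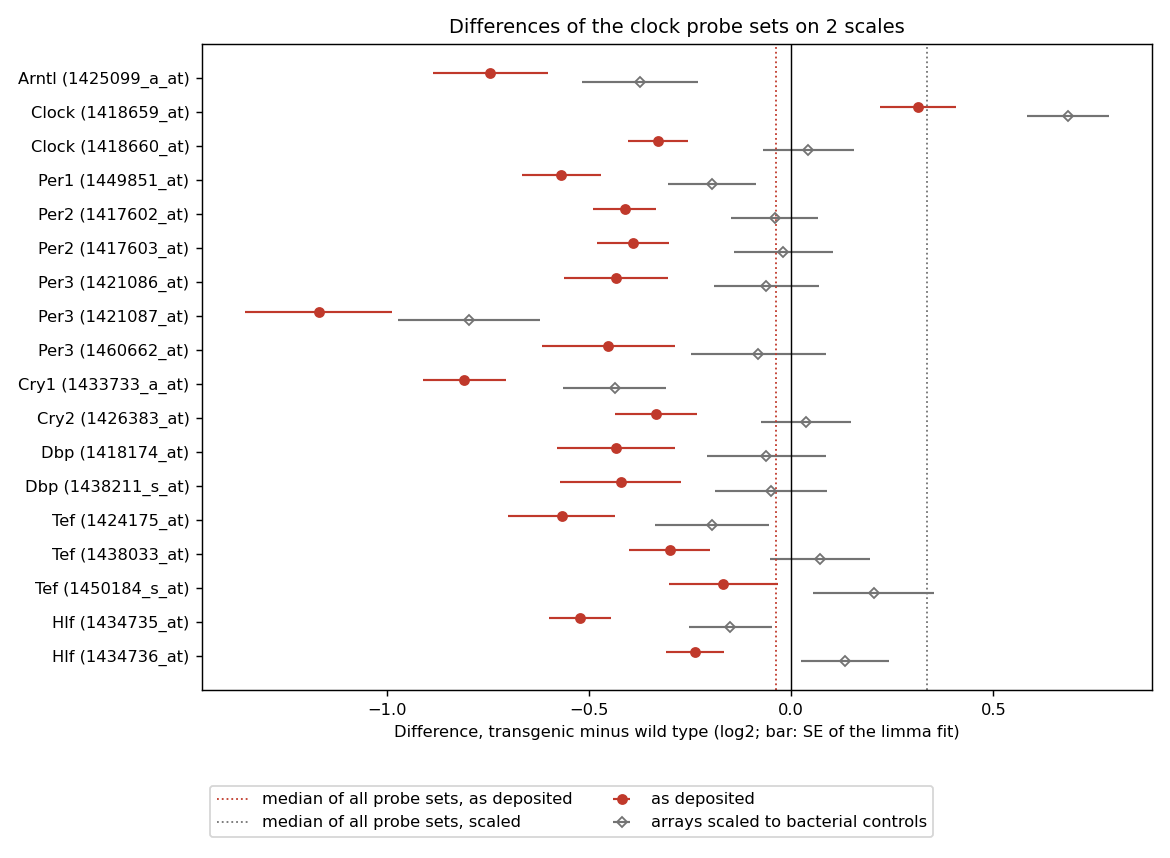
Log2 differences, transgenic minus wild type (horizontal axis), with the SE of the limma fit for each clock probe set, as deposited (red circles) and with arrays scaled to the bacterial RNAs (grey diamonds). Dotted lines give the median of all probe sets on each scale, -0.04 and 0.33; the scaling moves every point and the median alike by 0.37.

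Most clock probe sets were spread more widely among the 3 wild-type animals than among the 3 transgenic animals. Probe sets of the same gene or animals are not independent, and this spread was not tested. The range of the 3 wild-type values was wider than that of the 3 transgenic values at 14 of the 18 probe sets, against 56.2% of all probe sets. The median SD of the clock probe sets was 0.09 in transgenic and 0.16 in wild-type livers, against 0.09 and 0.11 over all probe sets. Wild-type replicate 1 was the lowest wild-type array for Arntl, Cry1, Per1 and 1 Per2 probe set and the highest at the other 14. It was thus at an end of the wild-type values at 18 of 18 clock probe sets, but also at 74% of all probe sets. Among genes chosen after their values were seen, Mt2, a metallothionein gene, read 11.20 in that animal and 8.86 and 8.78 in the other wild-type animals, and Rgs16, a regulator of G protein signalling, read 8.47 there against 9.85 and 9.38. Without that array 9 clock probe sets were called lower and 1 higher.

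**Figure D3:**
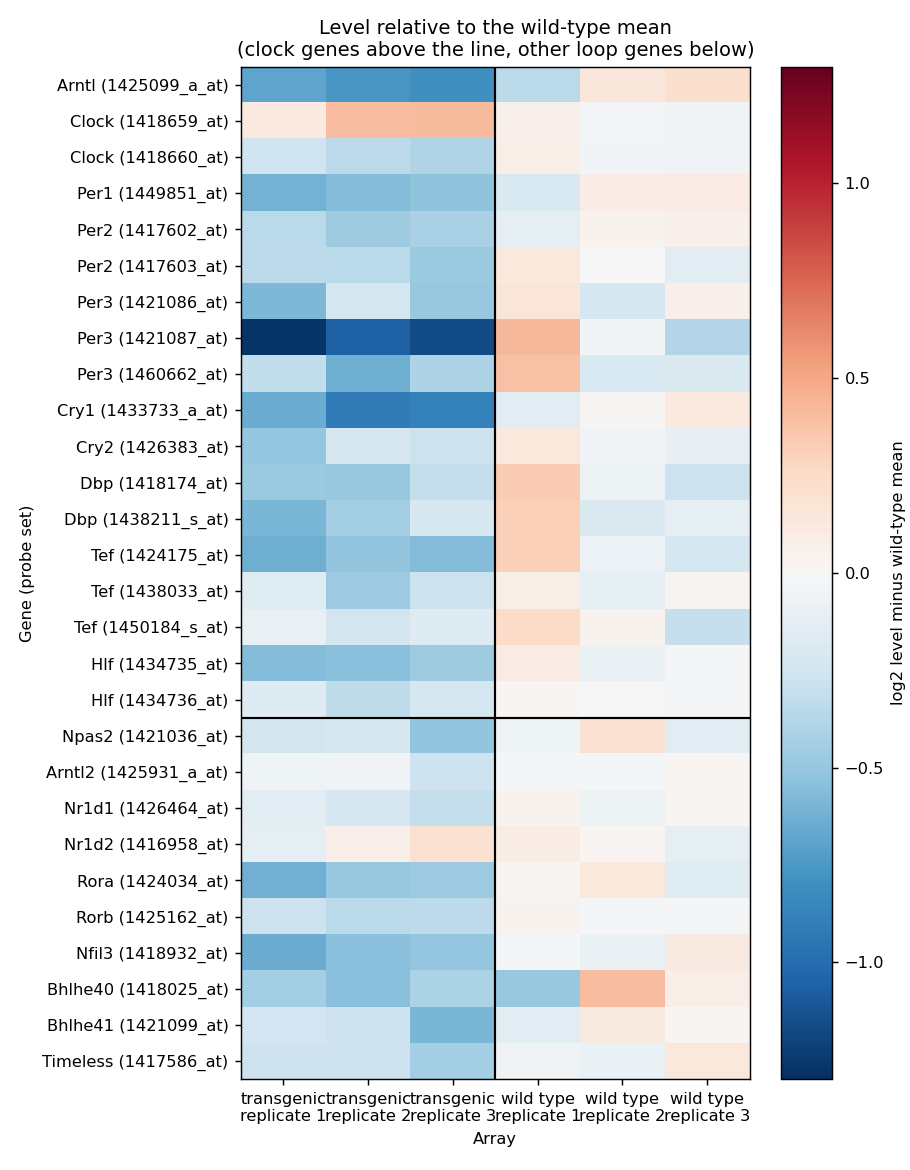
Log2 level minus the mean of the wild-type arrays (colour) for the 18 clock probe sets and, below the line, 10 other loop genes, with transgenic arrays left of wild-type arrays. On the deposited scale most transgenic cells are blue, and wild-type replicate 1 differs from the other wild-type arrays in opposite directions for Arntl (8.10 against 8.59 and 8.65) and Tef (10.12 against 9.74 and 9.58).

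The remaining genes of the clock loops were lower or did not pass. Of 10 measured genes, each represented by its brightest probe set, 5 fell and 5 did not pass, where 19.5% of all genes fell, and their median difference was -0.33, against -0.04 over all genes. Nfil3, which competes with the PAR bZIP factors at D-boxes, read 8.18, 8.29 and 8.32 in transgenic livers and 8.80, 8.75 and 8.94 in wild-type livers (difference -0.56, adjusted p = 0.00135). Rora, an activator of Arntl, differed by -0.53 (SE 0.09, adjusted p = 0.00359). The other falls were -0.37 for Bhlhe41, a repressor at E-boxes, and -0.32 for Rorb, a relative of Rora. Timeless, a replication fork protein also tied to the clock, fell by -0.33. Bhlhe41 (means of 4.13 transgenic and 4.50 wild type) and Rorb (4.47 and 4.79) were dim, at percentiles 18.4 and 22.3 of mean level. With quantile normalization again or cyclic loess the Bhlhe41 call was lost (adjusted p = 0.103 and 0.101). Bhlhe41 and Timeless lost their calls without transgenic replicate 3 (adjusted p = 0.0976 and 0.0782) or wild-type replicate 3 (0.0883 and 0.07), and Bhlhe41 also without transgenic replicate 2 (0.0547) or wild-type replicate 2 (0.113).

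Nr1d1, which encodes REV-ERB alpha, a repressor of Arntl, did not pass (difference -0.22, adjusted p = 0.0524), and its relative Nr1d2 gave 0.05 (adjusted p = 0.75), although its second probe set gave -0.42 (0.0078). Bhlhe40, another E-box repressor, differed by -0.47 (adjusted p = 0.102), and passed without wild-type replicate 1 (-0.71, 0.00299). Npas2, which can replace CLOCK, gave -0.32 (adjusted p = 0.0638), with -0.54 (0.025) on its second probe set. The Npas2 probe sets and the second Nr1d2 probe set were dim, with group means of 3.90 to 4.67. The Nr1d1 probe set was dim too (means of 4.92 transgenic and 5.14 wild type), and its groups did not overlap. Arntl2, a relative of Arntl, gave -0.12 (0.269). Scaled to the bacterial RNAs 1 of these 10 genes, Nr1d2, was called higher and the others did not pass. Of all genes 56.5% were called higher and 5.29% lower on that scale. The signs of Timeless, Npas2, Rorb, Arntl2 and Nr1d1 turned. Leaving out transgenic replicate 3 or wild-type replicate 3 left 3 of the 5 falls by count.

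Some enzymes that modify clock proteins were higher in transgenic livers. Of 8 measured genes 3 rose, where 19.1% of all genes rose, and 5 did not pass. Csnk1e and Csnk1d, kinases that phosphorylate PER proteins, rose by 0.38 (SE 0.07, adjusted p = 0.00361) and by 0.31 (adjusted p = 0.0153). Gsk3b, another kinase of the loop, rose by 0.30 (adjusted p = 0.0255). The second Csnk1e probe set did not pass (0.19, adjusted p = 0.206), and the mean of its probe sets was 0.29 (0.0169). The Csnk1d rise was seen on 1 of 5 probe sets, was 0.09 (adjusted p = 0.26) over their mean, and was lost without transgenic replicate 2 (0.0589) or wild-type replicate 2 (0.0548). Gsk3b kept its call without transgenic replicate 2 or wild-type replicate 1, and without the others its adjusted p was 0.0664 to 0.0814. With arrays scaled to the bacterial RNAs 7 of the 8 were called higher, against 56.5% of all genes. As deposited, 1 gene of the 8 passed without wild-type replicate 2, and 2 without any transgenic replicate or without wild-type replicate 3.

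Genes known to cycle in liver under the clock were called in both directions, with 4 of 10 lower, 1 higher and 5 not passed, where 19.5% of all genes were lower and 19.1% higher. Insig2, which holds back cholesterol and fatty acid synthesis, read 10.37, 10.13 and 10.15 in transgenic livers and 10.92, 11.58 and 11.50 in wild-type livers (difference -1.12, SE 0.17, adjusted p = 0.00181). Noct, encoding the phosphatase nocturnin, differed by -0.77 (adjusted p = 0.0177), Gys2, the liver glycogen synthase, by -0.44 (0.0196), and Usp2, a deubiquitinase, by -0.36 (0.00748). Wee1, a cell cycle kinase gene that BMAL1 and CLOCK activate through E-boxes, was the exception and rose by 0.38 (SE 0.09, adjusted p = 0.0139). Its second probe set did not pass (0.09, adjusted p = 0.353), and the mean of both was 0.23 (0.0337). The Noct call was lost without transgenic replicate 1 (adjusted p = 0.0505) or 3 (0.0508), and that of Gys2 without wild-type replicate 2 (0.0578). Scaled to the bacterial RNAs, 1 of these genes was lower and 4 higher (5.29% and 56.5% of all genes), and the sign of Usp2 turned (0.01). Without wild-type replicate 1 the count lower was 6 and without wild-type replicate 2 the count higher was 2.

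Of 5 measured genes that the PAR bZIP factors are known to control in liver, 2 fell, where 19.5% of all genes fell, and 3 did not pass. Nr1i3, which encodes the xenobiotic receptor CAR, read 7.44, 7.35 and 7.33 in transgenic livers and 9.41, 9.53 and 9.44 in wild-type livers (difference -2.08, SE 0.07, adjusted p = 2.09e-06). Ppara, the fatty acid receptor gene, differed by -1.09 (SE 0.09, adjusted p = 7.3e-05). Both fell on the scale of the bacterial RNAs too. The others are named after their values were seen. Alas1, the first enzyme of heme synthesis, gave -0.04 (adjusted p = 0.824), Cyp2b10 gave -0.17 (0.364) and Cyp7a1, the rate-limiting enzyme of bile acid synthesis, gave -0.59 (0.143), with -0.47 (0.0182) on its second probe set.

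Genes that respond to hormonal and temperature signals known to set liver clocks were called in both directions. Of 14 measured, 4 fell, 4 rose and 6 did not pass, where 19.5% of all genes fell and 19.1% rose. The glucocorticoid-responsive genes Tsc22d3, Fkbp5 and Klf9 differed by -1.15 (SE 0.11, adjusted p = 0.000222), -0.92 (SE 0.07, 7.85e-05) and -0.65 (SE 0.07, 0.000419), while Sgk1, also induced by glucocorticoids, rose by 0.80 (SE 0.12, 0.00192). The glucocorticoid receptor gene Nr3c1, named after its value was seen, differed by -0.37 (adjusted p = 0.00435). Dusp1 and Mt2, which also respond to glucocorticoids, gave -0.04 (adjusted p = 0.906) and 0.76 (0.326). Of 6 heat shock genes 3 rose, Hsph1 by 0.82 (adjusted p = 0.000329), Hsp90aa1 by 0.72 (0.000446) and Hspa8, named after its value was seen, by 0.50 (0.00256). The other heat shock genes, Hspa1b, Dnajb1 and Hspa1a, gave 0.39 (adjusted p = 0.0752), 0.17 (0.257) and 0.03 (0.874) on their brightest probe sets. Dimmer probe sets were called higher for Hspa1b (0.51, adjusted p = 0.0466, and 0.49, 0.0219) and Dnajb1 (0.38, 0.0113). Cirbp, an RNA-binding protein gene induced by cooling, gave -0.07 (adjusted p = 0.718). The genes of this list that did not pass are named after their values were seen. On the scale of the bacterial RNAs 3 of these genes were lower and 7 higher, against 5.29% and 56.5% of all genes.

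**Figure D4:**
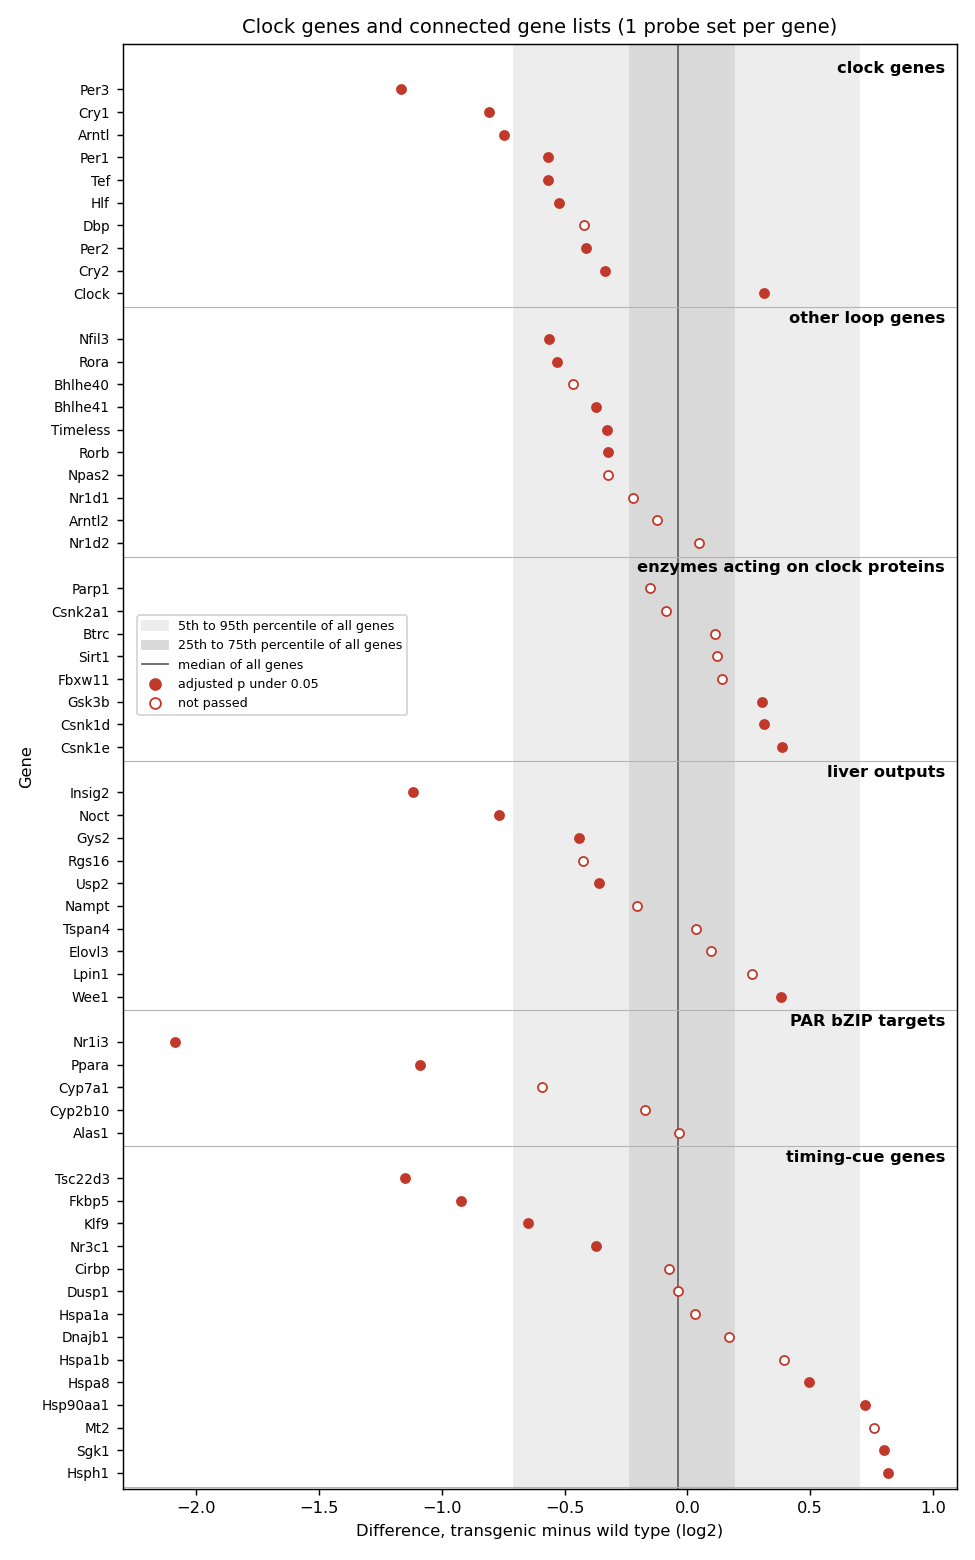
Log2 differences, transgenic minus wild type (horizontal axis), of the 10 clock genes and of 5 connected gene lists, with 1 probe set per gene and filled circles for an adjusted p under 0.05. Grey bands give the spread of all genes, whose 5th and 95th percentiles are -0.71 and 0.70 on the deposited scale, and Per3, Cry1 and Arntl lie below the band.

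Markers of several cell types also differed between the groups on the deposited scale, where 19.5% of all genes fell and 19.1% rose. Of 6 granulocyte markers 5 fell, and their summed linear signal was 2515 to 5735 in transgenic and 10811 to 23800 in wild-type livers. Of 4 measured bile duct markers 3 rose, with sums of 1124 to 1319 in transgenic and 280 to 703 in wild-type livers. All 4 measured lymphoid markers fell, with sums of 238 to 290 in transgenic and 440 to 542 in wild-type livers. Hepatocyte markers fell for 4 of 9, with sums of 164699 to 166028 in transgenic and 180090 to 185725 in wild-type livers. Of 6 macrophage markers 2 fell (sums of 8019 to 10212 in transgenic and 10047 to 13368 in wild-type livers), and of 5 endothelial markers 3 fell and 1 rose (2888 to 3170 in transgenic and 3272 to 3380 in wild-type livers). Of 5 stellate markers 2 fell (6396 to 7120 in transgenic and 7196 to 8330 in wild-type livers), and of 4 measured erythroid markers 2 rose (5127 to 6928 in transgenic and 5570 to 6508 in wild-type livers). The part of these cells in the clock differences was not tested.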

How the data were processed

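Liver RNA from each animal was hybridised to an Affymetrix array. According to the submitters' processing notes, the authors used affy and RMA, which includes quantile normalization, and the deposited values are on a log2 scale, 1 per probe set. Of 22690 probe sets, 64 array controls were set aside. The platform annotation gives 1 gene for 20380 probe sets, several for 691 and none for 1555, and 20351 matched RefSeq through Entrez identifiers. RMA makes array distributions nearly equal, so a shift of all transcripts together would be hidden, and the number of arrays limits precision.

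Groups came from the sample titles. The comparison used limma 3.58.1 (lmFit, eBayes, no covariates, two-sided) in R 4.3.3 over all 22626 probe sets, and the script was tested on simulated data. The smallest p that exact permutation of 6 arrays allows is 0.1, and no permutation test was made. Other gene lists were counted by each gene's probe set with the highest mean. Promoters and figures used Python 3.11.15 and matplotlib 3.10.9.

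The members and lists were chosen with earlier results of these data known. All clock probe sets and loop genes are named, and of each other list up to 6 genes past the threshold with the largest difference, or the 2 largest where none passed. Some genes of the clock-related lists were not analysed here. Alternatives were 1 probe set or the mean per gene, filters on suffix and on the 40% dimmest probe sets, other normalizations, trend and robust eBayes, array weights, blocking on replicate number and omitting single arrays. Counts of list genes under scaling and without single arrays were added after seeing the data.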

Additional observations from a re-analysis of the deposited data

How the results depend on the processing

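Of the 14 clock probe sets called, 9, all lower, kept their call with each array left out. Setting aside the gene mean and scaling to the bacterial RNAs, they also kept it under every alternative that tested them. The filters and the choice of 1 probe set per gene left some of them untested. Numbers called lower were 9 to 12 and numbers called higher 0 to 1 with single arrays left out, and 5904 to 7596 of all probe sets passed. Scaling to the bacterial RNAs left 3 called lower and gave 13908 calls in all, against 8006. It turned the signs of Clock 1418660_at (0.0426), Cry2 (0.0369), Hlf 1434736_at (0.13), Tef 1438033_at (0.0711), Tef 1450184_s_at (0.20), Timeless (0.0436), Npas2 (0.0494), Rorb (0.0488), Arntl2 (0.25), Nr1d1 (0.15) and Usp2 (0.0111). Testing 1 probe set per gene gave 8 lower among 10 and 4990 calls. The gene mean gave 9 lower and 0 higher among 10, and 4765 calls in all. Dropping shared probe sets gave 5178 calls. Each of these alternatives tested fewer features. The 1 higher call, Clock 1418659_at, was 0 with quantile normalization again, median centring, cyclic loess or the replicate block, and averaged -0.0079 over both probe sets. Nr1d2 turned to -0.19 over the gene mean, -0.0448 with cyclic loess, -0.0315 without transgenic replicate 3 and -0.01 without wild-type replicate 3.

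Transgenic and wild-type arrays share replicate numbers but are not paired in the labels. Deviations of same-numbered arrays correlated at -0.10, -0.02 and 0.05 across probe sets, and 1 of 3 transgenic arrays correlated best with its own number. With the replicate block 6757 probe sets passed, 11 clock probe sets were lower and 0 higher. With 3 arrays per group, calls near the threshold were easily lost. Those of Cry2 and Clock 1418659_at were each lost without any 1 of 4 arrays. Their differences kept their signs, at -0.39 to -0.25 for Cry2 and 0.26 to 0.41 for Clock 1418659_at.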
